A study of Mus musculus with 6 samples.

Results

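The 10 genes described here mark alveolar type 2 cells, the epithelial cells that make lung surfactant, and they were read in libraries of neutrophils sorted from mouse lung. They were chosen by name as known markers of the cell type, with earlier results of these data known (Sftpc, Sftpb, Sftpa1, Sftpd, Slc34a2, Lamp3, Napsa, Abca3, Etv5 and Cxcl15). All 10 were found among the 55487 genes of the count table, and all 10 were among the 15774 genes that passed the filter on low counts. The 3 mutant libraries came from mice with a transgene carrying Cre and EGFP under the S100A8 (Mrp8) promoter and both Tgfbr2 alleles flanked by loxP sites (genotype Mrp8-Cre;TGFbR2-fl/fl, from a cross of the Tg(S100A8-cre,-EGFP)1Ilw line on B6.Cg with B6;129-Tgfbr2tm1Karl/J mice). The 3 wt libraries came from Cre-negative littermates with the same TGFbR2-fl/fl alleles, so the floxed gene was shared by all 6 libraries. Mice were perfused with PBS, lungs were minced and digested with liberase, and cells positive for the neutrophil surface protein Ly6G were sorted and profiled by RNA-seq. The sources used here give neither age nor sex. The labels do not say that each library is a separate mouse, so p-values describe only how these 6 libraries vary, which may be technical. Replicate numbers were given here by sample order within each group, and libraries sharing a number are not known to be matched. The comparison of mutant with wt addresses what differs in sorted lung neutrophils when the TGF-beta receptor gene is targeted by a Cre under a myeloid promoter.

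Type 2 cells sit in the corners of the alveolus and secrete surfactant, a film of phospholipid and protein that lowers surface tension. Surfactant is assembled in lamellar bodies, lysosome-related organelles into which lipid is pumped and in which the precursors of the hydrophobic proteins are cut. The same cells are progenitors of the flat alveolar type 1 cells and take part in innate defence through secreted lectins and chemokines.

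Library totals were 30403494 to 35906780 counts, and the sorted cells carried their defining transcripts: Csf3r, the G-CSF receptor gene, stood at 7689 to 8111 CPM in mutants and 8042 to 9233 CPM in wt (CPM: each count relative to the TMM-adjusted total of its library), and Ly6g at 14.4 to 33.6 CPM in mutants and 19.3 to 35.2 CPM in wt. Tgfbr2, the targeted gene, was at 176, 205 and 181 CPM in mutant replicates 1 to 3 and at 186, 185 and 201 CPM in wt replicates 1 to 3. The groups overlapped (log2 fold change -0.03 ± 0.10 SE, adjusted p = 0.996, edgeR), and since the count pools all exons it does not check the deletion. A level of 3 counts corresponded to 0.0829 to 0.102 CPM, and all values of the 10 genes lay above it.

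The 10 genes together took 0.0655%, 0.0709% and 0.111% of all counts in mutant replicates 1 to 3, and 0.0434%, 0.0633% and 0.0339% in wt replicates 1 to 3. Their summed level was 650, 730.1 and 1080 CPM in mutants and 435, 636 and 340.4 CPM in wt. The groups did not overlap, but the gap between mutant replicate 1 and wt replicate 2 was narrow, and mutant replicate 3 and wt replicate 3 stood at the ends. In bulk RNA more cells of a type and more RNA per cell cannot be told apart.

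Compared per length, as TPM (read counts divided by gene length and scaled to a common total), Sftpc was the most abundant of the 10 genes in every library, at 643, 940.0 and 1515 TPM in mutants and 432, 851 and 310.1 TPM in wt. On this scale it took 52.0% to 65.9% of the sum of the 10 genes, and averaged over libraries it stood higher than 98.8% of the tested genes. Napsa (164 TPM on average over 6 libraries), Sftpa1 (143 TPM) and Sftpb (100.2 TPM) followed. Sftpb was the fourth in all 6 libraries, whereas Napsa and Sftpa1 changed places: Sftpa1 was above Napsa in mutant replicates 1 and 3 and below it in the other 4 libraries. Sftpd (22.7 TPM), Slc34a2 (17.4 TPM), Abca3 (14.1 TPM) and Cxcl15 (10.8 TPM) formed a lower tier whose ranges over libraries overlapped. Etv5 (6.92 TPM) and Lamp3 (6.63 TPM) were the lowest on average and did not differ beyond their spread.

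None of the 10 genes passed an adjusted p of 0.05 in mutants against wt by edgeR's quasi-likelihood test, where 1 of the 15774 tested genes was higher (0.00634%; Ap1s1, which is not one of the 10) and 0 were lower. At an unadjusted p under 0.05, 9 of the 10 were higher and 0 lower in mutants, against 3.51% of all tested genes higher and 3.22% lower. The exception was Napsa. Leaving out mutant replicate 3 made it 4 genes (against 2.57% of all genes in that fit), as did leaving out wt replicate 1 (3.62%) or wt replicate 3 (3.86%), each a fit with fewer libraries; without mutant replicate 1 it was 6 (3.45%), and Slc34a2, Sftpb and Sftpa1 were among the 4 each time. For 7 of the 10 genes every mutant library exceeded every wt library, against 6.82% of tested genes, and for 0 of the 10 it was the reverse, against 6.21%. The median log2 fold change was 1.03 over the 10 genes and 0.01 over all tested genes. DESeq2's Wald test, which called 0.514% of genes higher, called Slc34a2 (adjusted p = 8.4e-05) and Sftpb (adjusted p = 0.0022). Without the filter on low counts edgeR called 3 of the 10 higher, against 0.157% of genes, and with only genes averaging 10 CPM or more it called 1 of 7, against 0.203%. By these 3 settings 0 of the 10 were lower, against 0.469%, 0.111% and 0.0724% of genes. The adjusted p of Slc34a2 ran from 8.4e-05 to 0.666 over all alternatives and that of Sftpb from 0.0022 to 0.720.

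**Figure D1:**
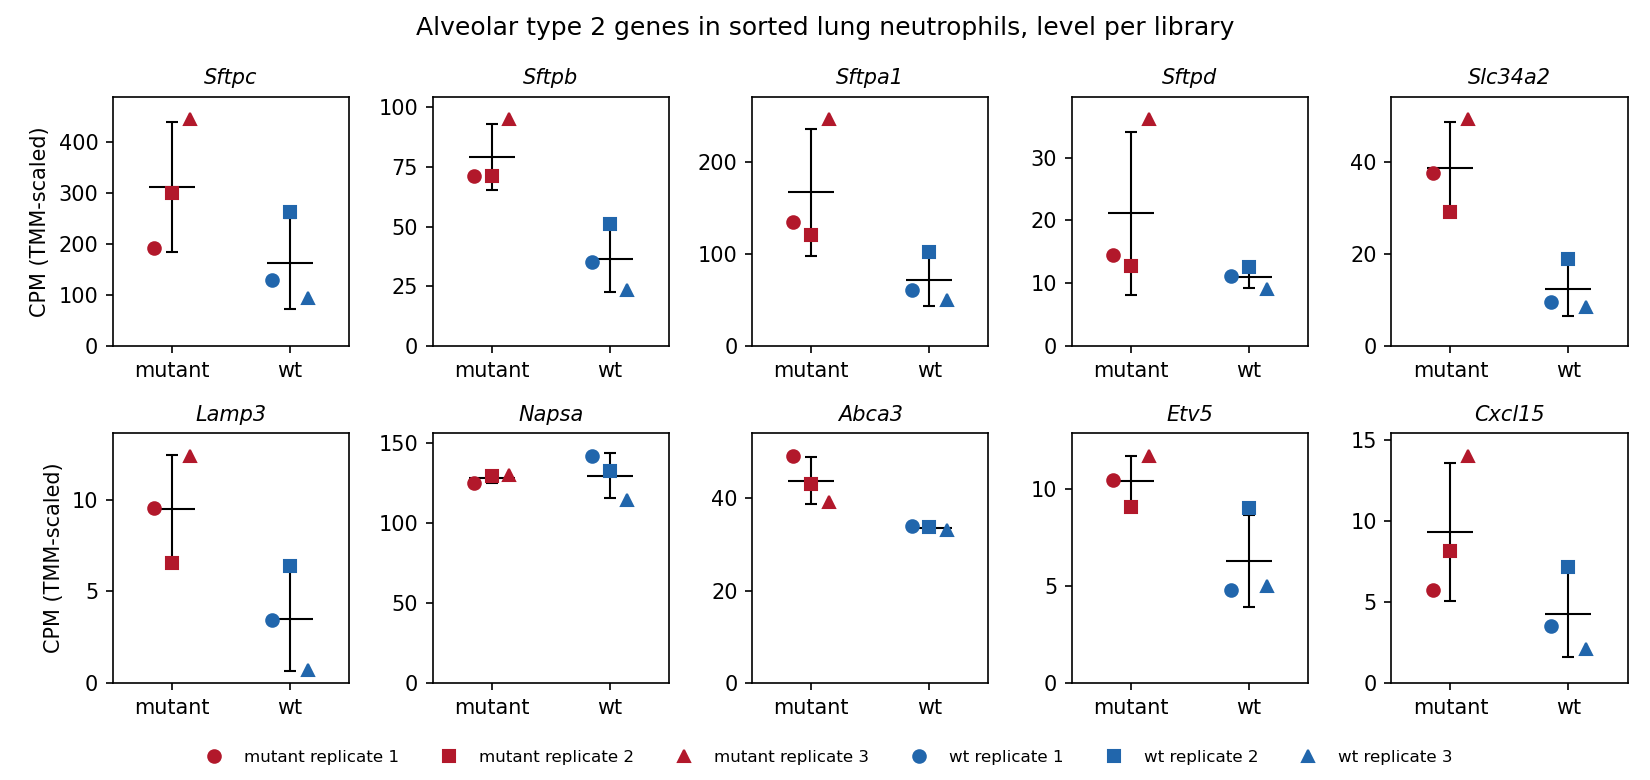
Level of each of the 10 alveolar type 2 genes per library, in TMM-scaled CPM on linear axes that start at 0, with mutant (red) left of wt (blue); marker shapes give the replicate, the horizontal line the mean and the bar 1 SD over 3 libraries. Mutant replicate 3 is the highest library for 8 of the 10 genes, while Napsa is nearly level at 114 to 142 CPM.

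The 4 surfactant protein genes come first. Sftpc encodes surfactant protein C, a small hydrophobic membrane peptide cut from a larger precursor and the classical marker of type 2 cells (minus strand of chromosome 14, 70520949 to 70524081 in GRCm38, 5 merged exons). It was at 192, 300.3 and 446 CPM in mutant replicates 1 to 3 and at 131, 263 and 93.8 CPM in wt replicates 1 to 3. Wt replicate 2 was above mutant replicate 1, so the groups overlapped, and mutant replicate 3 was 4.75-fold above wt replicate 3. Means were 313 ± 127 CPM in the mutant group and 162 ± 88.9 CPM in the wt group (SD over 3 libraries). The log2 fold change was 0.94 (95% interval 0.12 to 1.77; edgeR, adjusted p = 0.641). The log2 value was 0.60 without mutant replicate 3 and 1.48 without wt replicate 2.

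Sftpb encodes surfactant protein B, a hydrophobic protein without which lamellar bodies do not form (plus strand of chromosome 6, 72304610 to 72314371, 11 merged exons). Its levels were 71.0, 71.2 and 94.98 CPM in mutants and 35.3, 51.2 and 23.6 CPM in wt. The groups did not overlap, and replicate spread was close to equal, with means of 79.1 ± 13.8 CPM for mutants and 36.7 ± 13.8 CPM for wt (SD over 3 libraries). The log2 fold change was 1.11 (95% interval 0.55 to 1.67) (edgeR, unadjusted p = 0.0012, adjusted p = 0.294).

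Sftpa1 and Sftpd encode collectins, soluble lectins that bind microbes and aid their clearance by phagocytes, and both lie on chromosome 14 (Sftpa1 on the plus strand at 41131782 to 41136452, Sftpd on the minus strand at 41172214 to 41185149). Sftpa1 was at 135, 120.4 and 247 CPM in mutants and at 61.5, 102 and 50.3 CPM in wt. Its groups did not overlap, with a log2 fold change of 1.23 (95% interval 0.55 to 1.91; edgeR, adjusted p = 0.342). Sftpd was at 14.5, 12.7 and 36.1 CPM in mutants and at 11.1, 12.5 and 9.13 CPM in wt. Mutant replicate 2 and wt replicate 2 were nearly equal for Sftpd, and the difference rested on mutant replicate 3: the log2 fold change was 0.95 (95% interval 0.13 to 1.77, adjusted p = 0.636, edgeR) with that library and 0.32 without it.

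The promoters of 7 of the 10 genes were matched in RefSeq's sequences (GRCm38.p6, 250 bases before to 50 bases after the annotated start, on the gene's strand). Those of 3 genes that varied together, Sftpb, Sftpa1 and Lamp3, are shown with that of Abca3, whose levels had a narrower range over the libraries, so that their letters can be set side by side. Capitals mark matches on either strand to GCNCTNNAG, a motif known for the lung transcription factor NKX2-1, to TGTTTNC, a core bound by forkhead factors such as FOXA1 and FOXA2, and to CCGGAA, a core bound by ETS factors such as ETV5.
Sftpb, chr6:72304360-72304659, plus strand: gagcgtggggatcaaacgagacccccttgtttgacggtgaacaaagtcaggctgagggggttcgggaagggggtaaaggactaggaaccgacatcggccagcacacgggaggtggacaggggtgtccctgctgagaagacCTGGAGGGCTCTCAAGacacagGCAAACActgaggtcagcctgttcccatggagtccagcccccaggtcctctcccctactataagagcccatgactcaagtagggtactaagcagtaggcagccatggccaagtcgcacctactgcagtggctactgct
Sftpa1, chr14:41131538-41131837, plus strand: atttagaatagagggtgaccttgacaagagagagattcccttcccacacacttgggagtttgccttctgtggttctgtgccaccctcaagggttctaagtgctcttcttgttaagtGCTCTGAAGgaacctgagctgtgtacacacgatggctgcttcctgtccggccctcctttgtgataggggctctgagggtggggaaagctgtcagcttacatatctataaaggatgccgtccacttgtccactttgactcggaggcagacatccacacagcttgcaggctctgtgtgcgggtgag
Lamp3, chr16:19706316-19706615, minus strand: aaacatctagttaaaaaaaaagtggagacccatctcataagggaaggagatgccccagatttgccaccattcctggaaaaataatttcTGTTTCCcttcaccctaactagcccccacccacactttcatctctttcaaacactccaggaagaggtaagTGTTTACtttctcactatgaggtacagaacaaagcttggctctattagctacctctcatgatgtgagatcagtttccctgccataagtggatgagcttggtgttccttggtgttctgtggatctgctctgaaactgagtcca
Abca3, chr17:24351773-24352072, plus strand: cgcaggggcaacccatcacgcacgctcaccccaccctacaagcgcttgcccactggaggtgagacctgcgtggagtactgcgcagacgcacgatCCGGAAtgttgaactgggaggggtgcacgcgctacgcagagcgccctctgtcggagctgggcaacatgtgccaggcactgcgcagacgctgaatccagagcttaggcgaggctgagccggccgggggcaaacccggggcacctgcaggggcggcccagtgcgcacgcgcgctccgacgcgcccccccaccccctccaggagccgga
The Sftpb window held 2 NKX2-1 matches, which overlap each other, and 1 forkhead match; the Sftpa1 window held 1 NKX2-1 match, the Lamp3 window 2 forkhead matches and the Abca3 window 1 ETS match. Of 32851 promoter windows of the same length, 17.5% held the NKX2-1 letters, 20.5% the forkhead letters and 14.9% the ETS letters. Etv5 had 2 windows, of which 1 held 1 forkhead match and the other had 0 matches. The windows of Slc34a2 and Cxcl15, which also varied together with Sftpb and Sftpa1, held 0 matches to any of the 3 motifs. These are matches of letters and not measured binding.

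The genes of the lamellar body and of transport differed in how far they varied over the libraries. Slc34a2 encodes the sodium-phosphate cotransporter of the apical membrane, which recovers phosphate from surfactant turnover (plus strand of chromosome 5, 53038081 to 53071664, 14 merged exons). It was at 37.6, 29.3 and 49.3 CPM in mutants and at 9.59, 18.9 and 8.50 CPM in wt. The groups did not overlap, and the ratio of means, 3.14, was the largest of the 10 genes. Its log2 fold change was 1.65 (95% interval 0.95 to 2.35) (edgeR, unadjusted p = 0.00035, adjusted p = 0.263), and over all alternatives it ran from 1.44 to 2.10.

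Lamp3 encodes a lysosomal membrane protein found on lamellar bodies and also made by mature dendritic cells (minus strand of chromosome 16, 19653378 to 19706375). It was at 9.56, 6.57 and 12.4 CPM in mutants and at 3.42, 6.41 and 0.688 CPM in wt. Mutant replicate 2 and wt replicate 2 both had 194 counts and wt replicate 3 had 22 counts, so the non-overlap of the groups is narrow and the 18.0-fold range over libraries is set by 1 low wt library. The log2 fold change was 1.44 (95% interval 0.09 to 2.80, adjusted p = 0.691, edgeR). Ccr7, a marker of mature dendritic cells, was at 17.6, 19.4 and 28.8 CPM in mutants and at 10.4, 8.72 and 15.9 CPM in wt (adjusted p = 0.498, edgeR). The dendritic cell markers as a list did not share this direction. Of 9 tested, 2 had a positive log2 fold change (against 50.7% of all tested genes), with a median of -0.31. The part of dendritic cells in the Lamp3 values was not tested.

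Napsa and Abca3 varied less over the libraries than the genes above. Napsa encodes napsin A, an aspartic protease that cuts the precursor of surfactant protein B (plus strand of chromosome 7, 44572380 to 44586862). It was at 125, 129 and 130.01 CPM in mutants and at 142, 132 and 114 CPM in wt. The groups overlapped, and the highest library was only 1.24-fold above the lowest. Its log2 fold change was -0.01 (95% interval -0.27 to 0.24, adjusted p = 0.998, edgeR). The interval excludes a 1.5-fold difference (log2 0.58) in either direction. Antisense gene Gm15396 shares 502 exon bases with Napsa and had 0 CPM on average. Since the SMART-Seq v2 protocol does not mark strand, reads over these bases cannot be assigned to either gene.

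Abca3 encodes the lipid transporter that fills the lamellar body with phospholipid (plus strand of chromosome 17, 24351950 to 24410201, 32 merged exons). It was at 49.2, 43.2 and 39.1 CPM in mutants and at 33.9, 33.8 and 33.1 CPM in wt. The groups did not overlap, yet the order within the mutants was the reverse of that of Sftpc: mutant replicate 3, the highest library for Sftpc, was the lowest mutant library for Abca3. The log2 fold change was 0.38 (95% interval 0.07 to 0.69, adjusted p = 0.607, edgeR). Abca3 shares 914 exon bases with D330041H03Rik (2.12 CPM on average against 38.7 for Abca3), and the SMART-Seq v2 protocol does not mark strand, so reads over these bases cannot be assigned to either gene.

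**Figure D2:**
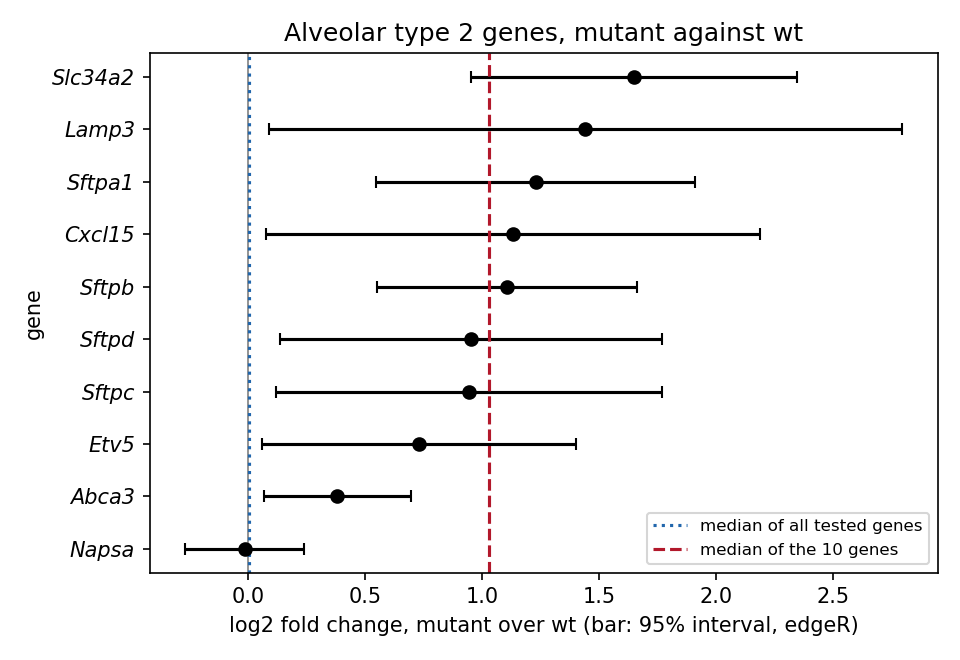
Log2 fold change of each gene, mutant over wt, with its 95% interval from edgeR; the dotted line is the median of all 15774 tested genes and the dashed line the median of the 10 genes, 1.03. The intervals of 9 genes lie above 0 and that of Napsa spans it, while 0 of the 10 passed the adjusted threshold.

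Etv5 encodes an ETS transcription factor that maintains type 2 cell identity (minus strand of chromosome 16, 22381309 to 22439719). It was at 10.4, 9.08 and 11.7 CPM in mutants and at 4.80, 9.02 and 5.00 CPM in wt. Mutant replicate 2 and wt replicate 2 were almost equal, and the log2 fold change was 0.73 (95% interval 0.06 to 1.40, adjusted p = 0.679, edgeR). Cxcl15 encodes lungkine, a mouse chemokine made by lung epithelium that attracts neutrophils (plus strand of chromosome 5, 90794534 to 90803067). It was at 5.75, 8.13 and 13.99 CPM in mutants and at 3.51, 7.13 and 2.06 CPM in wt. Wt replicate 2 lay above mutant replicate 1, as for Sftpc, and the log2 fold change was 1.13 (95% interval 0.08 to 2.19, adjusted p = 0.691, edgeR).

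Across the 6 libraries 8 genes shared one order, with small exchanges. Mutant replicate 3 was the highest library for 8 of the 10 genes and wt replicate 3 the lowest for 9 of 10. For 7 genes (Sftpc, Sftpb, Sftpa1, Sftpd, Slc34a2, Lamp3 and Cxcl15) both held at once, which was so for 3.74% of all tested genes. These 2 libraries were picked after the values of the 10 genes were seen. The share of all genes is therefore a description and not an independent comparison. Among wt libraries, replicate 2 was the highest for the same 7 genes and for Etv5. The levels of wt replicate 2 were thus closer to the mutants than those of the other wt libraries, and the order of libraries did not follow genotype alone.

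As a description over 6 libraries that share the scaling and the genotype difference, the Pearson r of log2 CPM with Sftpc was 0.99 for Cxcl15, 0.92 for Sftpb, 0.92 for Sftpa1, 0.88 for Etv5, 0.86 for Slc34a2, 0.86 for Lamp3 and 0.81 for Sftpd. It was 0.40 for Abca3 and 0.34 for Napsa. When the mean of each group was first subtracted, which removes the genotype difference, r remained 0.99 for Cxcl15 and 0.91 for Sftpb, ran from 0.67 to 0.88 for Sftpa1, Sftpd, Slc34a2, Lamp3 and Etv5, and was 0.50 for Napsa and -0.56 for Abca3. For Abca3 the negative value came from the mutants, since its 3 wt levels were nearly equal and the lowest was in wt replicate 3, as for Sftpc. With other genes Abca3 had a higher r over the 6 libraries: 0.76 with Slc34a2, 0.70 with Sftpb, 0.62 with Lamp3 and 0.59 with Sftpa1, while the 28 pairs among the 8 genes without Napsa and Abca3 ran from 0.71 to 0.99. The separation of Napsa and Abca3 from the other 8 genes was made after their values were seen.

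**Figure D3:**
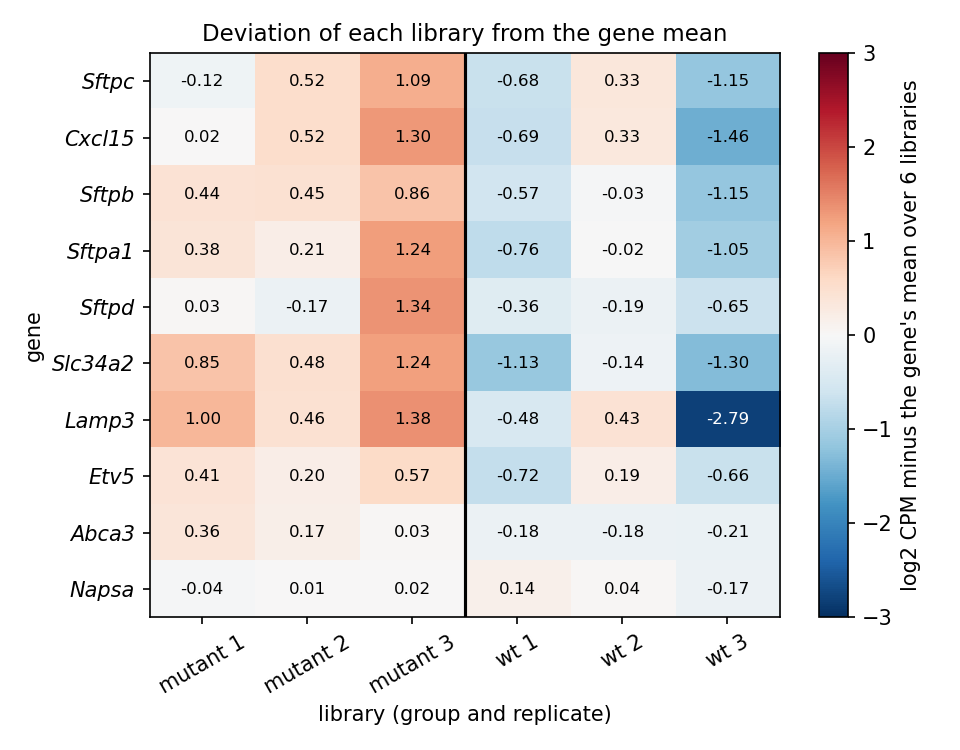
Log2 CPM of each gene minus its mean over the 6 libraries, with mutant libraries left of wt libraries; red is above and blue below the gene's mean. The upper 8 genes reach their highest value in mutant replicate 3 (0.57 to 1.38), whereas Abca3 and Napsa stay between -0.21 and 0.36 in every library.

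Ratios within a library do not depend on the scaling. Per length, Sftpb stood at 11.2% to 19.4% of Sftpc in mutants and 10.2% to 14.2% in wt, and Cxcl15 at 1.32% to 1.53% in mutants and 1.07% to 1.32% in wt. The ratio of Cxcl15 to Sftpc varied 1.43-fold over the 6 libraries, although Cxcl15 itself varied 6.78-fold. For Sftpa1, Sftpb, Etv5, Sftpd and Slc34a2 the ratio varied 1.81-fold to 2.72-fold, and for Lamp3 6.80-fold. Napsa was at 11.3% to 25.2% of Sftpc in mutants and 19.5% to 47.3% in wt, a 4.17-fold range, and Abca3 at 0.968% to 2.82% in mutants and 1.42% to 3.89% in wt, a 4.02-fold range. The 8 genes without Napsa and Abca3 summed to 476, 558 and 911 CPM in mutants and 259.8, 471 and 193 CPM in wt, while Napsa and Abca3 together summed to 174, 172 and 169 CPM in mutants and 176, 166 and 147 CPM in wt. The sum of the 8 varied 4.72-fold over the 6 libraries and that of the pair 1.19-fold.

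Likeness to Sftpc was taken as the Pearson r of log2 CPM over the 6 libraries, among 12838 genes that averaged 1 CPM or more. Gene models, clones, pseudogenes and mitochondrial genes were not named. Of the other genes in none of the lists, the 8 closest were Bpnt1, Smim14, Src, Prpf38a, Anapc1, Gpr132, Arpc4 and F10, with r of 0.97 to 0.98. Cxcl15, at 0.99, was closer than any of these. In all, 31 genes (0.241%) reached r of 0.95. With only 6 libraries and 12838 genes searched, some r this high can arise among unrelated genes, and how many was not computed. Likeness of order says nothing of size: Sftpc varied 4.75-fold over the libraries, F10, the gene of coagulation factor X, 3.50-fold, and Arpc4, a subunit of the actin-nucleating ARP2/3 complex, 1.13-fold.

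Other genes known from type 2 cells mostly had a positive fold change, while the most abundant of them had overlapping groups. Of 14 further genes, 11 were tested, and 0 passed the adjusted threshold. Of the 11, 10 had a positive log2 fold change, against 50.7% of all tested genes, and the median was 0.56. At an unadjusted p under 0.05, 2 were higher, against 3.51% of all tested genes. Mutant replicate 3 was the highest library for 9 of the 11. The 4 most abundant per length were Chil1, a chitinase-like protein, at 602, 582 and 559.7 CPM in mutant replicates 1 to 3 and 596 to 649 CPM in wt, Lyz1, a lysozyme, at 38.8 to 58.9 CPM in mutants and 31.9 to 41.1 CPM in wt, the lysosomal protease gene Ctsh at 89.9 to 106 CPM in mutants and 74.6 to 104 CPM in wt, and the surfactant lipid enzyme gene Lpcat1 at 18.6 to 32.0 CPM in mutants and 16.5 to 25.2 CPM in wt. The groups overlapped for each of these 4. Chil1 gave 75.8% of the summed CPM of the 14 genes. Without it the sum was 189 to 263 CPM in mutants and 151 to 187 CPM in wt, a narrow gap between the groups. Some transcripts known from type 2 cells were at or near the limit: S100g had 2, 1 and 2 counts in mutants and 0 counts in each wt library, and Sfta2 had 4, 2 and 2 counts in mutants and 0 counts in each wt library. A count of 0 allows a level of up to 3 counts, 0.0938 to 0.0991 CPM in wt.

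Of 10 regulators of surfactant genes 8 were tested, with a median log2 fold change of 0.35, 0 past the adjusted threshold and 0 at an unadjusted p under 0.05. Nkx2-1, the homeobox factor that switches on the surfactant genes, was at 2.05, 1.69 and 3.94 CPM in mutants and at 1.12, 3.57 and 1.13 CPM in wt. Its wt replicate 2 was the highest wt library, as for Sftpc, and the groups overlapped (adjusted p = 0.970, edgeR). The glucocorticoid receptor gene Nr3c1 was far higher, at 174 to 205 CPM in mutants and 181 to 193 CPM in wt. Of 16 genes for phosphatidylcholine and fatty acid synthesis all 16 were tested, with a median of 0.11, 0 past the adjusted threshold and 1 higher at an unadjusted p under 0.05. Plin2, which coats lipid droplets and led this list by level, was at 560.5, 225 and 327 CPM in mutants and at 308, 261 and 328 CPM in wt.

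Markers of other lung cells were read in the same libraries, and 0 members of any list passed the adjusted threshold. Over all tested genes, 50.7% had a positive fold change and 3.51% were higher at an unadjusted p under 0.05. General epithelial markers summed to 84.7 to 107 CPM in mutants and 57.2 to 68.0 CPM in wt over 10 genes, of which 8 of 9 tested had a positive fold change and 3 an unadjusted p under 0.05. Among them Cldn18, a tight junction gene of the lung, was at 27.0, 31.7 and 37.4 CPM in mutants and at 17.5, 26.2 and 19.8 CPM in wt (adjusted p = 0.551, edgeR). Ciliated cell markers summed to 72.9, 84.3 and 125 CPM in mutants and 56.2, 72.5 and 46.4 CPM in wt over 8 genes, an order of libraries like that of the type 2 genes. Sec14l3 gave 64.4% of that sum. Without it the sum was 21.5, 27.4 and 41.9 CPM in mutants and 23.2, 26.6 and 22.4 CPM in wt. The groups then overlapped, and mutant replicate 1 was the lowest library. Of the 8 ciliated markers 5 were tested, of which 4 had a positive fold change and 2 were higher at an unadjusted p under 0.05 (edgeR). The only tested marker with a negative fold change was the defining ciliated factor Foxj1. It had 12, 0 and 14 counts in mutants and 14, 28 and 14 counts in wt.

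Alveolar type 1 markers summed to 586, 585 and 755 CPM in mutants and 638, 579.5 and 655 CPM in wt over 12 genes, so the groups overlapped. Cav1, which endothelium also makes, gave 44.7% of that sum. Ager, the receptor gene typical of type 1 cells, was at 69.5, 81.4 and 143 CPM in mutants and at 48.5, 66.4 and 49.6 CPM in wt, again highest in mutant replicate 3 (adjusted p = 0.484, edgeR). Of the 12 type 1 markers 11 were tested, and 8 of these had a positive fold change, against 50.7% of all tested genes. At an unadjusted p under 0.05 (edgeR), 2 were higher and 0 lower, against 3.51% and 3.22% of all tested genes. Hopx, the type 1 marker that did not pass the filter on low counts, had 10, 6 and 1 counts in mutants and 14, 9 and 5 counts in wt.

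Fibroblast markers summed to 2729, 3412 and 4054 CPM in mutants and 2368, 2606 and 2793 CPM in wt over 10 genes. Of the 10, 9 were positive and 6 were higher at an unadjusted p under 0.05, against 50.7% and 3.51% of all tested genes. Gsn, an actin-severing protein gene that many cell types use, gave 75.01% of that sum, and without it the sum was 674, 787 and 1197 CPM in mutants and 601, 567 and 661 CPM in wt. Alveolar macrophage markers summed to 936, 789.8 and 1460 CPM in mutants and 731, 654 and 499 CPM in wt over 13 genes, with 11 of 13 positive and 4 at an unadjusted p under 0.05. Chil3, which neutrophils also make, gave 52.0% of the macrophage sum, and without it the sum was 415 to 461 CPM in mutants and 337 to 413 CPM in wt. Endothelial markers had 0 of 10 positive, at 1265 to 1535 CPM in mutants and 1403 to 1707 CPM in wt, with overlapping groups. Neutrophil markers summed to 19405, 24442 and 18738 CPM in mutants and 21828, 22044 and 23198 CPM in wt over 12 genes, of which 3 were positive. At an unadjusted p under 0.05, 2 were lower, S100a8 and Cxcr2, against 3.22% of all tested genes. Cxcr2, a chemokine receptor gene of neutrophils, was at 1991, 2136 and 1946 CPM in mutants and at 2623, 2475 and 2605 CPM in wt, without overlap (edgeR, adjusted p = 0.294). Mutant replicate 3, with the highest type 2 sum, had the lowest neutrophil sum, and mutant replicate 2, with the second highest type 2 sum, had the highest. That highest sum rested in part on the marker Mmp9. Mmp9 was at 3755, 7261 and 3874 CPM in mutants and at 4191, 4450 and 4634 CPM in wt. Neutrophil sums without Mmp9 were not computed, so the rank of mutant replicate 2 may depend on this gene. The part of these other transcripts in the values of the 10 genes was not tested.

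**Figure D4:**
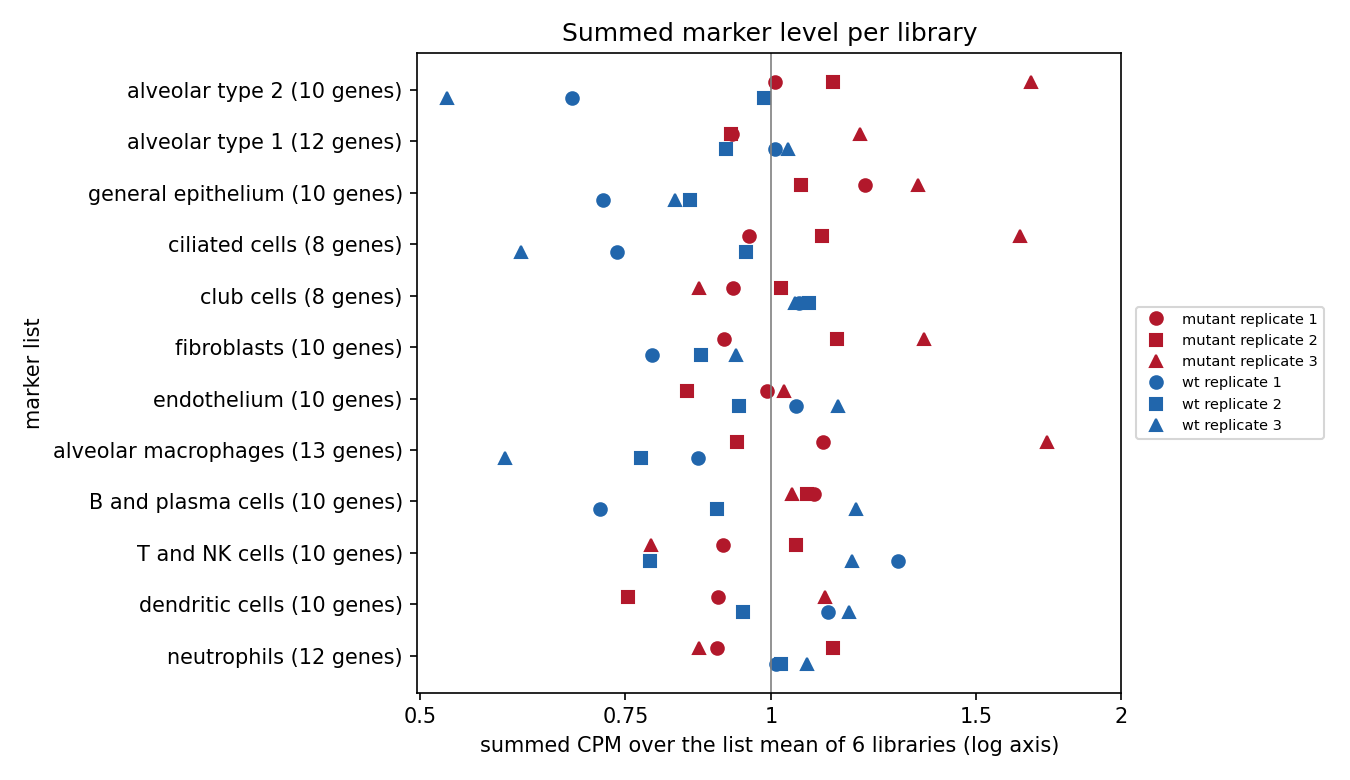
Summed CPM of each marker list in each library over that list's mean of the 6 libraries, on a log axis, with mutant in red and wt in blue and the replicate by marker shape. The type 2 genes run from 0.53 in wt replicate 3 to 1.67 in mutant replicate 3. The sums of alveolar macrophage markers (0.59 to 1.73) and ciliated markers (0.61 to 1.64) span a similar range with the same end libraries. Of these sums, Chil3 gave 52.0% of the macrophage sum and Sec14l3 64.4% of the ciliated sum. Endothelial markers (0.85 to 1.14) and neutrophil markers (0.87 to 1.13) span less.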

How the data were processed

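RNA was measured in 6 libraries, 3 mutant and 3 wt, made from 2 ng of RNA by SMART-Seq v2 and Nextera XT, per the labels' protocols. The authors deposited raw, whole-number read counts per gene, with all exons pooled. STAR, featureCounts and GRCm38 are named in the submitters' processing notes, but the sources used here give no versions, annotation release or strand option. Among genes with 1 to 50 counts, 71.2% to 72.8% had an even count in each library. Counting both mates of a pair would give such a pattern, in which case 1 fragment is worth 2 counts; the counting mode is not given, floors in counts cover counting error only, and reads without molecular identifiers include PCR copies.

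Symbols came from GENCODE M21 (55094 identifiers matched exactly, 300 without version, 93 unmatched). Genes were filtered with filterByExpr (minimum count 10), scaled by TMM and compared with the quasi-likelihood F-test of edgeR (version 4.0.16, under R version 4.3.3); p-values were adjusted by Benjamini-Hochberg over all 15774 tested genes at 5%. Standard errors are the fold change over the square root of F. TPM was computed here from the counts and the gene lengths in the table. Log2 CPM for correlations used a prior count of 2. DESeq2 (1.42.0) and limma-voom (limma 3.58.1) were alternatives, as were other scalings, other filters and leaving out each library. The members and lists were chosen with earlier results of these data known, so counts are given beside those of all genes, with no test over a list. Genes named are the 10 members, Tgfbr2, up to 4 most abundant genes per length of each list, and the 8 genes with established symbols most like Sftpc. Named after their values were seen were Ap1s1, Ccr7 beside Lamp3, S100g, Sfta2, Foxj1, Hopx, Ly6g, Cxcr2, Gm15396 and D330041H03Rik.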

Additional observations from a re-analysis of the deposited data

How the results depend on the processing

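The median log2 fold change of the 10 genes stayed between 0.68 and 1.45 under every alternative, and 9 of the genes kept a positive sign in each. Napsa, close to 0, ran from -0.097 to 0.057 when 1 library was left out, and was positive without mutant replicate 1 (0.0066), wt replicate 1 (0.057) and wt replicate 2 (0.0013). Of the 10 genes, 2 were called higher by DESeq2's Wald test (Slc34a2 and Sftpb), 3 with no filter on low counts (Slc34a2, Sftpb and Sftpa1) and 1 when restricted to genes averaging 10 CPM or more (Slc34a2, of 7 of the 10 tested there), against 0 in edgeR with the filter. Over all genes the same settings called 81, 41 and 14 genes higher and 74, 29 and 5 lower, against 1 and 0. By limma-voom, and by edgeR with DESeq2 size factors or library totals alone, 0 of the 10 genes were called. Over all genes each of these called 1 higher and 0 lower. With a library left out, 0 to 1 genes were called higher and 0 to 1 lower, and 0 of the 10 genes in each case. The count of the 10 genes higher at an unadjusted p under 0.05, added after the data were seen, ran from 4 to 9 with a library left out, against 2.57% to 4.26% of all genes in those fits, and the cause was not tested. Group means of the summed CPM moved by less than 1 SD under each scaling and left-out library. No paired analysis was possible because the labels carry no replicate numbers. With 3 libraries a group, the lower limits of the intervals of Etv5, Abca3, Cxcl15 and Lamp3 lie between 0.06 and 0.09 on the log2 scale.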

Other observations

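Lists not described above had 0 members past the adjusted threshold. Club cell markers summed to 2183, 2401 and 2041 CPM in mutants and 2485, 2538 and 2466 CPM in wt, of which 96.5% was Hp, the haptoglobin gene, which neutrophils also make. Without Hp the club sum was 106, 61.3 and 95.4 CPM in mutants and 61.5, 88.7 and 78.9 CPM in wt, an order of libraries unlike that of the type 2 genes. Scgb1a1, the defining club cell secretoglobin, was at 36.1, 24.1 and 17.3 CPM in mutants and at 15.9, 45.1 and 29.1 CPM in wt, lowest among mutants in replicate 3 where Sftpc was highest. B and plasma cell markers summed to 459 to 479 CPM in mutants and 314 to 520.1 CPM in wt, T and NK cell markers to 27.7 to 36.9 CPM in mutants and 27.7 to 45.2 CPM in wt, and dendritic cell markers to 166 to 246 CPM in mutants and 209 to 258 CPM in wt, each with overlapping groups. Red cell transcripts were low, at 3.07 to 3.96 CPM in mutants and 0.788 to 2.78 CPM in wt over 6 genes, with a narrow gap between the groups. Of these 6 genes 2 were tested, with 0 higher at an unadjusted p under 0.05 (edgeR), against 3.51% of all tested genes. Another 1 of the 6 had 0 counts in every library.

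Lgi3 and Acoxl, further type 2 genes named after their values were seen, had the same highest library as Sftpc. Lgi3 had 208, 121 and 395 counts in mutants and 60, 2 and 52 counts in wt, so wt replicate 2, the highest wt library for Sftpc, was the lowest for Lgi3. Acoxl had 103, 54 and 282 counts in mutants and 16, 56 and 30 counts in wt. Neither passed the adjusted threshold (adjusted p = 0.498 for Lgi3 and 0.551 for Acoxl, edgeR). S100a8, a calprotectin subunit gene of granulocytes, was at 966, 1507 and 973 CPM in mutants and at 1687, 1752 and 1688 CPM in wt (adjusted p = 0.405, edgeR), and the groups did not overlap.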
